A study of Mus musculus with 4 samples.

Results

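The genes described are 10 mouse heat shock chaperone genes: Hspa1a, Hspa1b, Hspa8, Dnajb1, Hsph1, Hsp90aa1, Hspd1, Hspe1, Hspa5 and their transcriptional activator Hsf1. They were chosen by name, each matched to its NCBI gene identifier, and all 10 were listed in all 4 libraries, out of 15935 genes listed in any. The libraries are RNA-seq of C57BL/6 bone marrow-derived macrophages, which were grown from adult mice over 5 days with M-CSF, a growth factor that turns marrow precursors into macrophages. Each of the 4 groups had 1 library: Ezh2-deleted cells given lipopolysaccharide for 2 h (KO LPS), untreated Ezh2-deleted cells (KO NT), wild-type cells given lipopolysaccharide for 2 h (WT LPS) and untreated wild-type cells (WT NT). KO cells carry floxed Ezh2 alleles and Cre under the lysozyme M promoter, which is active in myeloid cells. The labels do not say whether the WT mice carried Cre, or how many mice or cultures gave each library. No comparison below has a replicate check, no test was run, and no p-value is given.

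Heat shock proteins are chaperones that bind unfolded proteins and help them fold. In resting cells the factor HSF1 is held inactive by chaperones. When unfolded proteins accumulate, it trimerises and binds heat shock elements, repeats of GAA in alternating orientation, in the promoters of chaperone genes. The endoplasmic reticulum has a separate program, the unfolded protein response, whose factor ATF6 acts on promoters through the endoplasmic reticulum stress element. Lipopolysaccharide (LPS), a component of the outer membrane of Gram-negative bacteria, activates macrophages through Toll-like receptor 4.

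The promoters below are shown because the members with the highest LPS over NT ratios were a pair of near copies, Hspa1a and Hspa1b, followed by Hspa5. Hspd1 with Hspe1 and Hsph1 stand beside them as members that hold heat shock elements. Each is the RefSeq sequence upstream of a start site in GRCm38.p6, written on the strand of the gene. Capitals mark matches to the paired heat shock element (GAANNTTC or TTCNNGAA) or, in Hspa5, to the endoplasmic reticulum stress element (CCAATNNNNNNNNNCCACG, searched on both strands). Hspa1a is chr17:34972157-34972406 (minus strand), Hspa1b is chr17:34959239-34959488 (minus), Hspa5 is chr2:34771840-34772089 (plus) and Hsph1 is chr5:149636337-149636586 (minus). The Hspd1-Hspe1 stretch, chr1:55087933-55088147, lies between a start of Hspd1 and the start of Hspe1, genes that run in opposite directions, and is written on the minus strand of Hspd1.
Hspa1a: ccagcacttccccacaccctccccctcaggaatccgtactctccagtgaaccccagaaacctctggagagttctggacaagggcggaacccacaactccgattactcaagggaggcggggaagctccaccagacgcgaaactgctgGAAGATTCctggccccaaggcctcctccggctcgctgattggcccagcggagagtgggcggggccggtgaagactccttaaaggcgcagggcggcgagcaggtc
Hspa1b: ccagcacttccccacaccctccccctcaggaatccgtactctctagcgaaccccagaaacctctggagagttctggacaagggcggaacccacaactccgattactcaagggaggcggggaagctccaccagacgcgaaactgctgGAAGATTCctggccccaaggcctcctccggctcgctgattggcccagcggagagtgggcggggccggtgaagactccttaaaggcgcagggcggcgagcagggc
Hspa5: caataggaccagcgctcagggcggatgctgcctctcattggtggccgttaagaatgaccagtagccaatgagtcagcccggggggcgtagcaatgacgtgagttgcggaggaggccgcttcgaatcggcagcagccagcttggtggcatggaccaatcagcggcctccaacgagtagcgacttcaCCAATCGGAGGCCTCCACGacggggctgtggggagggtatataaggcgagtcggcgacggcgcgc
Hspd1-Hspe1: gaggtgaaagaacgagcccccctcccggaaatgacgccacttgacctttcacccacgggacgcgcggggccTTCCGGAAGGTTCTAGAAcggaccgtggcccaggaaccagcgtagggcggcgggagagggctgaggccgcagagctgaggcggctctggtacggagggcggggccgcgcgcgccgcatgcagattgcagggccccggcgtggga
Hsph1: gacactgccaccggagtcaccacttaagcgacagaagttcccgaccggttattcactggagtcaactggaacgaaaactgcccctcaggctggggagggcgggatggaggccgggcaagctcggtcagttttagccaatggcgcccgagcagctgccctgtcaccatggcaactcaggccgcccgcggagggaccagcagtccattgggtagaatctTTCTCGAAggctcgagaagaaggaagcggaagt

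RefSeq windows running from 250 bases before to 50 bases after a start site were matched for 7 of the 10 genes, in 10 windows. Hspa8, Hsp90aa1 and Hsf1 had no entry. The 300-base windows of Hspa1a and Hspa1b differed at 4 positions, written with the base of Hspa1a first, the position from 1 at the 5′ end of the window, and the base of Hspa1b last: C44T, T47C, T249G and C276T. Both held 1 paired heat shock element, beginning at position -104 from the start site. A paired element was found for 5 of the 7 genes, and 15.1% of all 32851 windows hold one. A count of genes is not the same measure as a share of windows, because some genes had more than 1 window. Nor are the 5 separate matches: Hspa1a and Hspa1b are near copies, and Hspd1 and Hspe1 share a stretch.

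The longer element of 3 units (GAANNTTCNNGAA or its other strand, TTCNNGAANNTTC) contains the paired one, and 0.603% of all windows hold it. It was found for 3 of the 7 genes, Hspd1, Hspe1 and Hsph1, again a count of genes and not of windows. In Hspd1 and Hspe1 the match is 1 run of overlapping units read from either strand, beginning at -144 from the inner of 2 Hspd1 starts and at -89 from the Hspe1 start. The window of the outer Hspd1 start, at the gene end, held no match. In Hsph1 the longer match lies downstream of the start, outside the bases printed, and a paired element begins at -33 from the first start. Hspa5 held the endoplasmic reticulum stress element, at -65, as do 0.119% of all windows. No window of Dnajb1 held a match to either. A match describes these letters and is no evidence of binding.

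**Figure D1:**
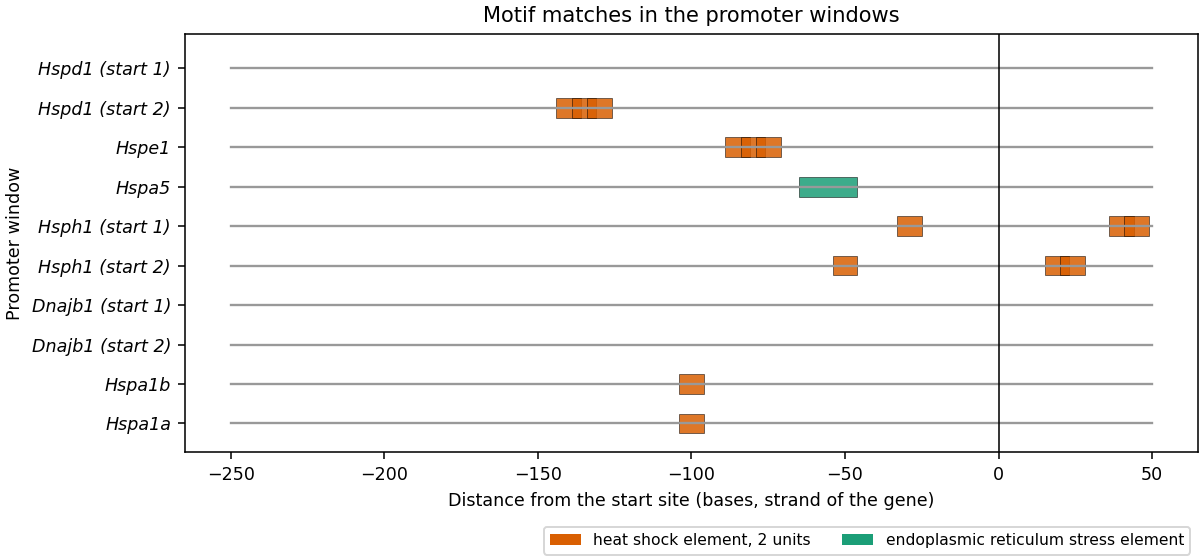
Positions of motif matches in the promoter windows of 7 genes; the x axis is the distance from the start site in bases on the strand of the gene, each grey line is 1 window, and boxes are matches. Hspa1a and Hspa1b hold a paired heat shock element at the same place, -104, and Hspa5 holds the endoplasmic reticulum stress element at -65.

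The total expected count, the sum over genes of the reads estimated for each, was 5237782 in KO LPS, 5668826 in KO NT, 5635004 in WT LPS and 5678451 in WT NT. Ezh2 stood at 1.29 FPKM in KO LPS and 2.06 in KO NT, against 2.52 in WT LPS and 2.84 in WT NT, on 18, 31, 38 and 43 counts. All 12 macrophage markers were listed in every library, with summed levels of 7298 to 8179 FPKM. The summed level of 10 neutrophil markers was 563 FPKM in KO LPS and 644 in KO NT, against 412 in WT LPS and 378 in WT NT. The summed level of 8 fibroblast markers was 4.89 FPKM in KO LPS and 4.82 in KO NT, against 8.81 in WT LPS and 8.05 in WT NT. The sums of lymphocyte and dendritic cell markers stayed at or under 4.10 FPKM in every library, with Cd3e, Cd3g and Ncr1 at 0 throughout. With bulk RNA, fewer cells of a type and less RNA per cell cannot be told apart.

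By level per length (FPKM, fragments scaled to transcript length and library size), the 10 genes covered a wide range. Hspa8, the constitutive cytosolic HSP70, was highest in every library, at 906 FPKM in KO LPS, 823 in KO NT, 887 in WT LPS and 863 in WT NT. Its rank among all genes was between 52 and 59 in each. Hspa5, Hsp90aa1, Hspd1 and Hspe1 followed in that order in all 4 libraries. Below them, Dnajb1, Hsf1 and Hsph1 kept that order too. Hspa1a and Hspa1b took the 2 lowest places without LPS and stood above Dnajb1 with LPS. Several neighbours in this order could not be separated by counting error in a library: Dnajb1 and Hsf1 in all 4, Hspa1a and Hspa1b in KO LPS and WT LPS, and Hspd1 and Hspe1 in KO NT and WT LPS. The 10 genes together took 0.353% of all counts in KO LPS (exact 95% binomial interval 0.348% to 0.358%) and 0.297% in KO NT (0.293% to 0.302%). They took 0.375% in WT LPS (0.370% to 0.380%) and 0.326% in WT NT (0.321% to 0.330%).

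**Figure D2:**
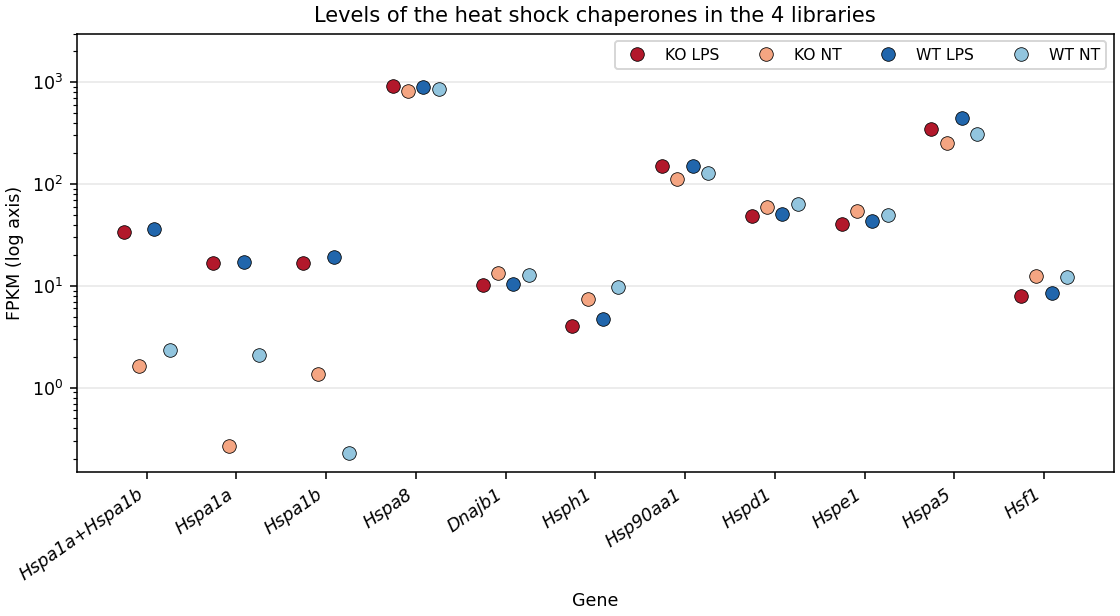
FPKM of each gene, and of Hspa1a and Hspa1b summed, on a log axis; each point is 1 library. The summed pair is at 33.4 FPKM in KO LPS and 36.1 in WT LPS, far above 1.62 in KO NT and 2.33 in WT NT, while the 4 points of each gene other than the pair lie closer together.

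The first question was what LPS did to each chaperone in either genotype. Ratios are of FPKM, with exact 95% intervals (Clopper-Pearson) from the expected counts of both libraries. These intervals, like those above, cover counting error only, because each group has 1 library. PCR copies of a molecule are counted as separate reads, so the intervals may be too narrow even for that error. An interval narrows as counts rise, so a gene of many counts can exclude 1 at a ratio close to it. The shares of all genes set beside counts of intervals below are not matched for counts. The median gene was lower with LPS: the median log2 fold, on the scale of FPKM + 1, was -0.42 over 11069 genes in KO and -0.46 over 10972 in WT. The LPS ratios of the members, other than Hspa1a and Hspa1b taken singly, are therefore also given after scaling the libraries by their median ratio over 9391 genes, which sets the median gene near 1. The ratios of other genes are given on the FPKM scale as deposited. That scaling moved the genes at least 2-fold higher and lower from 732 and 1668 to 1084 and 758 in KO, and from 703 and 1887 to 1059 and 834 in WT.

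Hspa1a and Hspa1b, which encode the stress-inducible cytosolic HSP70, were far higher with LPS in both genotypes. Their summed level was 33.4 FPKM in KO LPS and 1.62 in KO NT, on 493 and 25.9 counts, a ratio of 20.6 (13.9 to 31.9). It was 36.1 FPKM in WT LPS and 2.33 in WT NT, on 573 and 37.2 counts, a ratio of 15.5 (11.1 to 22.3). After median scaling the ratios were 27.8 in KO and 21.6 in WT. Fewer than 1 gene in 100 had a higher log2 fold than the sum: 94 of 11069 in KO and 104 of 10972 in WT. Hspa1a and Hspa1b were the only members at least 2-fold higher on the scale of FPKM + 1, 2 of 10 in each genotype, beside 6.61% of all genes measured in KO and 6.41% in WT. No member was at least 2-fold lower, beside 15.1% in KO and 17.2% in WT. In either direction, 2 members were apart, beside 21.7% in KO and 23.6% in WT. In WT a further member passed this fold under other settings: Hsph1, lower, with a pseudocount of 0.1, and Hspa5, higher, after median scaling.

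Taken singly, Hspa1a was at 16.7 FPKM in KO LPS, 0.27 in KO NT, 17.03 in WT LPS and 2.10 in WT NT. Hspa1b was at 16.7 FPKM in KO LPS, 1.35 in KO NT, 19.1 in WT LPS and 0.23 in WT NT. Each was higher with LPS in both genotypes, but by unlike amounts. The ratio of Hspa1a was 61.8 in KO (23.8 to 229) and 8.11 in WT (5.64 to 12.0), and that of Hspa1b was 12.4 in KO (8.01 to 20.2) and 83.0 in WT (32.1 to 307).

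How the reads were divided between Hspa1a and Hspa1b differed between libraries. Hspa1a held 245 expected counts in KO LPS, 4.37 in KO NT, 270 in WT LPS and 33.5 in WT NT. Hspa1b held 247 in KO LPS, 21.5 in KO NT, 304 in WT LPS and 3.68 in WT NT. With LPS the copies were near parity in both genotypes, and without LPS they leaned in opposite directions. The share of Hspa1a in the pair was 49.8% in KO LPS (exact 95% binomial interval 45.3% to 54.3%) and 47.0% in WT LPS (42.9% to 51.2%). It was 16.9% in KO NT (4.36% to 34.9%) and 90.1% in WT NT (74.6% to 97.0%).

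These intervals leave out the error of dividing reads between copies, which is unknown here. The genes lie 10120 bases apart on chromosome 17 (Hspa1a at 34969359 to 34972156, Hspa1b at 34956429 to 34959238). In the GENCODE M21 transcripts their coding parts differ at 8 of 1926 aligned bases. After the stop codon they differ at 246 of 614 aligned bases. The longest stretch of the coding parts without a difference is 638 bases. The single values of Hspa1a and Hspa1b are therefore uncertain. The sum needs no division between them and is the value compared here, but it is not free of division with other genes. Hspa1l, an HSP70 gene next to Hspa1a that was looked at after its values were seen, had 9.29 counts in KO LPS, 1.09 in KO NT, 13.8 in WT LPS and 12.9 in WT NT. These counts and those of the sum are fractional, so some reads of the sum were shared with other genes. Without LPS the sum held only 25.9 counts in KO NT and 37.2 in WT NT, so this sharing can move its ratios.

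**Figure D3:**
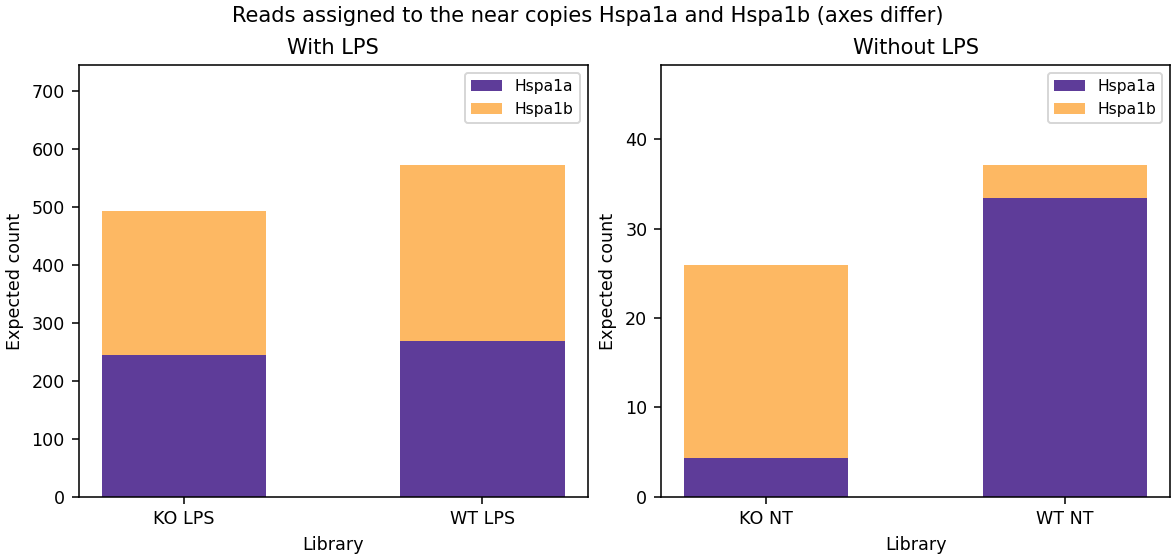
Expected counts of Hspa1a and Hspa1b, stacked, for the libraries with LPS (left) and without (right, a smaller axis); each bar is 1 library. The pair totals 493 in KO LPS and 573 in WT LPS, divided almost evenly, and 25.9 in KO NT and 37.2 in WT NT, mostly Hspa1b in KO NT and mostly Hspa1a in WT NT.

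Hspa8 (chromosome 9, 40801276 to 40805202), which folds proteins in unstressed cells and rests on 9804 to 10506 counts per library, was near level by comparison. Its LPS over NT ratio was 1.10 in KO (1.07 to 1.13) and 1.03 in WT (0.999 to 1.06), or 1.48 and 1.43 after median scaling. With LPS, Hspa8 was 27.1 times the summed Hspa1 pair in KO and 24.5 times in WT. Without LPS it was 508 times the pair in KO and 370.4 times in WT. The inducible pair made up 2.16% of the summed FPKM of the 10 genes in KO LPS and 0.121% in KO NT, against 2.21% in WT LPS and 0.161% in WT NT.

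Dnajb1 and Hsph1, which work with HSP70, were not higher with LPS on the FPKM scale. Dnajb1 (chromosome 8, 83608175 to 83612653), a J-domain protein that brings clients to HSP70 and stimulates its ATPase, was at 10.1 FPKM in KO LPS and 13.4 in KO NT, and at 10.5 in WT LPS and 12.8 in WT NT. The ratio was 0.756 in KO (0.614 to 0.928) and 0.827 in WT (0.675 to 1.01), and after median scaling both intervals included 1, around 1.02 in KO and 1.15 in WT. Dnajb1 has fractional counts, so some of its reads were shared with other genes.

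Hsph1 (chromosome 5, 149616843 to 149636498), an HSP110 that exchanges nucleotide on HSP70, had the lowest ratio of the 10. It was at 4.04 FPKM in KO LPS and 7.41 in KO NT, on 74 and 147 counts, a ratio of 0.545 (0.407 to 0.726). It was at 4.77 FPKM in WT LPS and 9.82 in WT NT, on 94 and 195 counts, a ratio of 0.486 (0.376 to 0.624). It was the one member whose interval stayed below 1 after median scaling in both genotypes, at 0.735 (0.548 to 0.978) in KO and 0.677 (0.524 to 0.870) in WT.

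Hsp90aa1 (chromosome 12, 110691036 to 110696395), the inducible isoform of cytosolic HSP90, a chaperone of kinases and steroid receptors, was somewhat higher with LPS. It was at 150.3 FPKM in KO LPS and 113 in KO NT, a ratio of 1.33 (1.25 to 1.42). In WT it was at 151 FPKM with LPS and 127 without, a ratio of 1.19 (1.12 to 1.26). Both levels with LPS stood above both without. After median scaling the ratios were 1.80 in KO and 1.65 in WT.

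Hspd1 and Hspe1 encode HSP60 and HSP10, the barrel and the lid of the chaperonin of the mitochondrial matrix, and overlap head to head by 96 bases on chromosome 1 (Hspd1 at 55077833 to 55088243, Hspe1 at 55088148 to 55091317). Hspd1 was at 48.9 FPKM in KO LPS and 58.8 in KO NT, and at 50.4 in WT LPS and 64.0 in WT NT. Hspe1 was at 40.2 FPKM in KO LPS and 54.2 in KO NT, and at 43.4 in WT LPS and 49.1 in WT NT. Both were lower with LPS as deposited, but this depends on the scale.

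The Hspd1 ratio was 0.832 in KO (0.747 to 0.927) and 0.787 in WT (0.710 to 0.872), and after median scaling it turned to 1.12 in KO and 1.10 in WT. The Hspe1 ratio was 0.742 in KO (0.603 to 0.910) and 0.884 in WT (0.722 to 1.08), and after scaling 0.9997 in KO and 1.23 in WT. Within a library the level of Hspd1 stayed close to that of Hspe1, at 1.22 times in KO LPS, 1.08 in KO NT, 1.16 in WT LPS and 1.305 in WT NT.

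Hspa5 (chromosome 2, 34772090 to 34776529), which encodes BiP, the HSP70 of the endoplasmic reticulum and a sensor partner of the unfolded protein response, was higher with LPS in both genotypes on either scale. It was at 350.2 FPKM in KO LPS and 253 in KO NT, on 4690 and 3659 counts, a ratio of 1.39 (1.33 to 1.45). It was at 445 FPKM in WT LPS and 308 in WT NT, on 6405 and 4461 counts, a ratio of 1.45 (1.39 to 1.503). Median scaling gave 1.87 in KO and 2.02 in WT.

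Hsf1 (chromosome 15, 76477362 to 76501155), the activator itself, was low and lower still with LPS. It was at 7.87 FPKM in KO LPS and 12.4 in KO NT, a ratio of 0.633 (0.477 to 0.836). In WT it was at 8.45 FPKM with LPS and 12.3 without, a ratio of 0.685 (0.523 to 0.895). After median scaling both intervals included 1, around 0.853 in KO and 0.955 in WT. HSF1 is regulated mainly as a protein, so its RNA level does not measure its activity.

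Counted over the 10 genes, the interval of the LPS ratio lay above 1 for 5 in KO and 4 in WT, where 14.5% and 13.3% of all genes did so. It lay below 1 for 5 in KO and 3 in WT, where 57.1% and 60.4% of all genes did so. After median scaling, 6 members lay above 1 and 1 below in each genotype, beside 28.8% above and 27.7% below over all genes in KO, and 29.2% and 29.6% in WT. The median log2 fold of the 10 genes was -0.06 in KO and -0.07 in WT, above the all-gene medians of -0.42 and -0.46. With Hspa1a and Hspa1b counted as 1 summed member it was -0.26 in KO.

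The pattern of the summed pair over the 4 libraries was compared with that of each of 9194 other genes of at least 50 counts in 1 library. Likeness was the root mean square difference of log2(FPKM + 1) after centring each gene on its own mean over 4 libraries. The nearest were Rel (0.040), Tnfaip2 (0.047), Foxp4 (0.057), Tnfsf4 (0.066) and Abtb2 (0.085). Rel, for example, was at 92.8 FPKM in KO LPS, 5.65 in KO NT, 97.5 in WT LPS and 7.55 in WT NT. The added 1 FPKM shrinks the folds of genes that are low without LPS, the summed pair among them. At 1.62 FPKM in KO NT and 2.33 in WT NT, the pair had LPS log2 folds of 3.72 in KO and 3.48 in WT on this scale. Likeness therefore matches these shrunken folds and not the plain FPKM ratios of the pair. Tnfsf4 and Abtb2 were below 1 FPKM without LPS, where the shrinkage is larger. Tnfsf4 was at 0.11 in KO NT and 0.44 in WT NT, on 1 and 4 counts. Abtb2 was at 0.30 and 0.80, on 8 and 21 counts. Of the other members Hspa5 came nearest, at a difference of 1.55, with 921 genes nearer.

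The next question was how the genotypes differed. Without LPS, the summed pair was at 1.62 FPKM in KO NT and 2.33 in WT NT, a ratio of 0.695 (0.404 to 1.18). With the reads divided as deposited, a difference was not detectable at this depth. The interval leaves out the error of sharing reads with other genes. The copies taken singly gave opposite answers. Hspa1a was at 0.27 FPKM in KO NT and 2.10 in WT NT, a ratio of 0.129 (0.0331 to 0.361). Hspa1b was at 1.35 FPKM in KO NT and 0.23 in WT NT, a ratio of 5.87 (1.99 to 23.4). Hspa1a was the 1 member of 10 at least 2-fold lower on the scale of FPKM + 1, beside 0.883% of all 10990 genes. None was at least 2-fold higher, beside 0.928%, so that 1 was apart in either direction, beside 1.81%.

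Hspa5 was lower in KO cells in both states. Without LPS it was at 253 FPKM in KO NT and 308 in WT NT, a ratio of 0.822 (0.786 to 0.859). With LPS it was at 350.2 FPKM in KO and 445 in WT, a ratio of 0.787 (0.758 to 0.817). After median scaling these were 0.811 without LPS and 0.751 with LPS. Hspa5 was the 1 member whose interval lay below 1 in both states. The 2 comparisons share no library, but the labels do not say whether they share mice or cultures. Neither is a replicate of the other.

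Hsp90aa1, Hspa8 and Hsph1 had intervals below 1 without LPS as well. Without LPS, Hsp90aa1 had a KO over WT ratio of 0.885 (0.830 to 0.943), Hspa8 of 0.953 (0.927 to 0.980) and Hsph1 of 0.755 (0.605 to 0.940). With LPS these were 0.995 (0.939 to 1.05), 1.02 (0.994 to 1.05) and 0.847 (0.616 to 1.16), and the 3 intervals included 1. Dnajb1, Hspd1, Hspe1 and Hsf1 had intervals that included 1 in both states, with ratios of 0.918 to 1.10 without LPS and 0.927 to 0.971 with LPS. With LPS the summed pair was at 33.4 FPKM in KO and 36.1 in WT, a ratio of 0.925 (0.819 to 1.05), or 0.883 (0.781 to 0.997) after median scaling.

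Counted over the 10 genes, intervals without LPS lay below 1 for 5 and above 1 for 1, beside 11.6% and 14.1% of all genes. With LPS they lay below 1 for 1 and above 1 for none, beside 9.52% and 21.2% of all genes. After median scaling, 6 lay below 1 and 1 above without LPS, beside 12.9% and 12.6% of all genes, and 2 below and none above with LPS, beside 13.1% and 15.1%. No member was 2-fold apart with LPS, beside 2.56% of 10375 genes, of which 1.45% were higher and 1.12% lower. On the CPM scale the split of all genes was 232 higher and 116 lower, against 150 and 116 on the FPKM scale. Over the 10 genes, 9 had a log2 fold below 0 with LPS, where 62.1% of all genes lay above 0. The members' median was -0.07 beside an all-gene median of 0.08. Without LPS those medians were -0.10 and 0.02. Marker genes of other cell types were also apart between genotypes in both states, at the summed levels given above. Of the neutrophil markers measured, intervals of the KO over WT ratio lay above 1 for 6 of 9 without LPS and 5 of 10 with LPS, beside 14.1% and 21.2% of all genes. They lay below for none, beside 11.6% and 9.52%. Of the fibroblast markers measured, they lay below 1 for 3 of 4 without LPS and 3 of 5 with LPS, and above for none, beside the same shares. Of the 12 macrophage markers, they lay above 1 for 7 and below for 2 without LPS, beside 14.1% and 11.6% of all genes. With LPS they lay above for 4 and below for 5, beside 21.2% and 9.52%. None of the shares of intervals in this paragraph is matched for counts, and genes of many counts exclude 1 at ratios closer to it. The part of any of these cell types in the differences of the members was not tested.

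**Figure D4:**
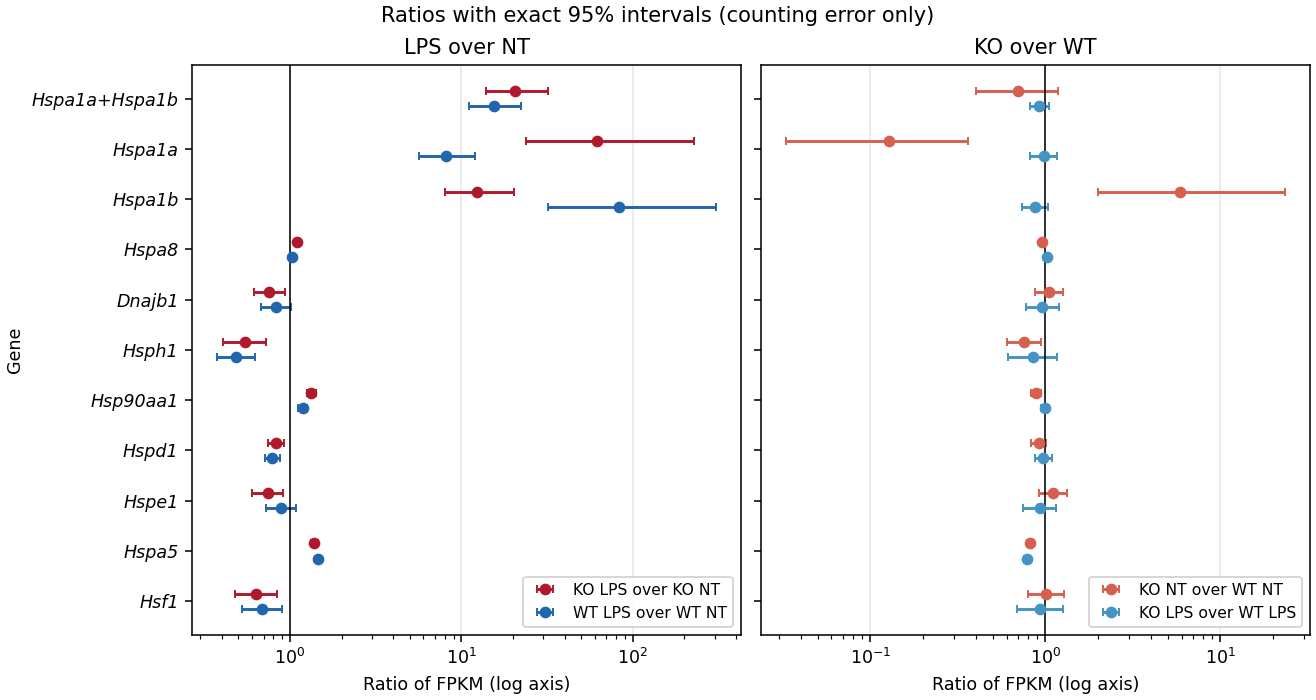
Ratio of FPKM for each gene on a log axis, LPS over NT (left) and KO over WT (right); points are ratios between 2 libraries and bars are exact 95% intervals of counting error. The summed pair lies at 20.6 in KO and 15.5 in WT on the left and near 1 on the right, where Hspa1a and Hspa1b without LPS lie on opposite sides of 1.

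The last question was whether the LPS response differed between the genotypes. The ratio of responses, KO over WT, has an exact conditional interval from the 4 counts. For the summed pair it was 1.33 (0.772 to 2.32), so a response 2.32 times as large in KO, or somewhat smaller than in WT, is within counting error. The error of sharing reads of the pair with other genes is left out of this interval. For Hspa5 it was 0.958 (0.904 to 1.02), or 0.926 (0.874 to 0.981) after median scaling. Hsp90aa1 stood at 1.12 (1.03 to 1.23) and Hspa8 at 1.07 (1.03 to 1.11). After median scaling both intervals included 1, at 1.09 (0.997 to 1.18) for Hsp90aa1 and 1.04 (0.997 to 1.08) for Hspa8.

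Hspa1a alone gave 7.62 (2.65 to 30.0) and Hspa1b alone 0.149 (0.0370 to 0.449), both resting on the few reads of each copy without LPS. Their responses were at least 2-fold apart, 1 higher in KO and 1 lower, beside 1.90% and 1.42% of 11320 genes, or 2 members beside 3.32% in either direction. The intervals of Hsph1, Dnajb1, Hspd1, Hspe1 and Hsf1 all included 1, with ratios of 0.839 to 1.12.

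The wider chaperone system was described with lists of other genes. The first, called the cytosolic list, holds 32 chaperones and co-chaperones, mostly but not all of cytosolic HSP70 and HSP90. Of these, 27 were measured in KO and 28 in WT. With LPS, 3 were at least 2-fold higher in each genotype, beside 6.61% of all genes in KO and 6.41% in WT, and none was lower, beside 15.1% and 17.2%. The list's median log2 fold was -0.22 in KO and -0.27 in WT, beside all-gene medians of -0.42 and -0.46. Intervals lay above 1 for 8 and below for 11 in KO, beside 14.5% and 57.1% of all genes. In WT they lay above for 6 and below for 13, beside 13.3% and 60.4%.

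Dnajb4, a J-domain protein like Dnajb1, was highest of this list: 35.1 FPKM in KO LPS and 10.2 in KO NT, a ratio of 3.45 (2.86 to 4.19). In WT it was at 27.7 FPKM with LPS and 9.04 without, a ratio of 3.07 (2.51 to 3.76). Stip1, the adaptor that passes clients between HSP70 and HSP90, was at 79.7 and 33.9 FPKM in KO LPS and KO NT, and at 80.7 and 32.6 in WT LPS and WT NT. Dnajb2 (ratio 2.75 in KO) and Dnaja2 (ratio 2.25 in WT) completed the sets, Stip1 in KO and Dnaja2 being named after their values were seen. Fkbp4, a co-chaperone of HSP90, was lowest in WT, at 14.7 FPKM with LPS and 26.5 without (ratio 0.553, 0.458 to 0.666), and stood at 0.619 (0.506 to 0.755) in KO. Hsp90ab1, the constitutive HSP90, also named after its values were seen, was level at 340.2 FPKM in KO LPS and 333 in KO NT, and 347 in WT LPS and 360.3 in WT NT.

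The chaperonin TRiC and its partner prefoldin, which fold actin and tubulin, were near level on the FPKM scale as deposited. None of 14 genes was 2-fold apart with LPS, beside 21.7% of all genes in KO and 23.6% in WT. The list's median log2 fold was -0.04 in KO and -0.02 in WT, above the all-gene medians of -0.42 and -0.46. In KO, intervals lay above 1 for 1 gene, Tcp1 (ratio 1.16, 1.06 to 1.27), and below 1 for 3, beside 14.5% and 57.1% of all genes. In WT they lay above 1 for none and below 1 for 1, Cct6a (0.898, 0.814 to 0.989), beside 13.3% and 60.4%.

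Mitochondrial chaperones and proteases had shares of lower genes near those of all genes. Of 16, 2 in KO and 3 in WT were at least 2-fold lower with LPS, beside 15.1% and 17.2% of all genes. None was at least 2-fold higher, beside 6.61% and 6.41%. Intervals lay below 1 for 11 in KO and 12 in WT, beside 57.1% and 60.4%, and above 1 for none, beside 14.5% and 13.3%. The median log2 fold was -0.57 in KO and -0.51 in WT, beside all-gene medians of -0.42 and -0.46. Dnaja3, a mitochondrial J-domain protein, was at 5.98 FPKM in KO LPS and 16.1 in KO NT, and at 6.53 in WT LPS and 17.6 in WT NT. Hspa9, the HSP70 of the matrix, was nearly level, with ratios of 0.972 (0.906 to 1.04) in KO and 0.933 (0.879 to 0.990) in WT.

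On the endoplasmic reticulum list, 15 of 21 genes in KO and 18 of 21 in WT had intervals below 1 with LPS, beside 57.1% and 60.4% of all genes. In each genotype 1 gene, Herpud1, lay above, beside 14.5% and 13.3%. Herpud1, a factor of the degradation of misfolded proteins in this compartment, was at 45.8 FPKM in KO LPS and 14.8 in KO NT, and at 33.9 in WT LPS and 12.1 in WT NT. Xbp1, a transcription factor of the unfolded protein response, had the lowest log2 fold in KO, at 38.7 FPKM with LPS and 69.6 without. Sdf2l1 had the lowest in WT, at 22.9 FPKM with LPS and 44.7 without. The list's median log2 fold was -0.31 in KO and -0.39 in WT, slightly above the all-gene medians of -0.42 and -0.46, while Hspa5 was at 0.47 and 0.53.

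Between genotypes, 9 of these 21 genes had intervals below 1 without LPS and 1 above, beside 11.6% and 14.1% of all genes. These shares are not matched for counts, so they do not measure enrichment of the list. With LPS, 9 lay below and 3 above, beside 9.52% and 21.2%. Creld2 and Hyou1, folding factors of this compartment, were lowest without LPS, at ratios of 0.562 (0.407 to 0.770) and 0.679 (0.607 to 0.759). With LPS Xbp1 stood at 0.767 (0.679 to 0.866) and Herpud1 at 1.35 (1.17 to 1.56). None of the 5 lists held a gene 2-fold apart between genotypes on the scale of FPKM + 1, beside 1.81% of all genes without LPS and 2.56% with LPS.

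In the cytosolic list, intervals of the KO over WT ratio lay below 1 for 4 of 28 and above for none without LPS, beside 11.6% and 14.1% of all genes. With LPS they lay below for 3 of 27 and above for 4, beside 9.52% and 21.2%. Of the 14 TRiC and prefoldin genes 2 lay below and 1 above, and of the 16 mitochondrial genes 1 below and 1 above, in either state. The shares of all genes beside these are the same. Hspa9 was the mitochondrial gene below 1 in both, at 0.738 (0.693 to 0.787) without LPS and 0.769 (0.719 to 0.822) with LPS. Of 6 heat shock factors and regulators, Hsf2 and Hsbp1 had at least 50 counts, and both were lower with LPS in both genotypes as deposited. Their LPS intervals lay below 1, as did those of 57.1% of all genes in KO and 60.4% in WT. Less the all-gene median, the log2 fold of Hsf2 was -0.27 in KO and -0.22 in WT. That of Hsbp1 was -0.24 in KO and -0.30 in WT. The Hsf2 ratio was 0.578 in KO and 0.578 in WT, and that of Hsbp1, which encodes a protein that binds HSF1, was 0.630 in KO and 0.585 in WT. Their KO over WT intervals included 1 in both states.

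**Figure D5:**
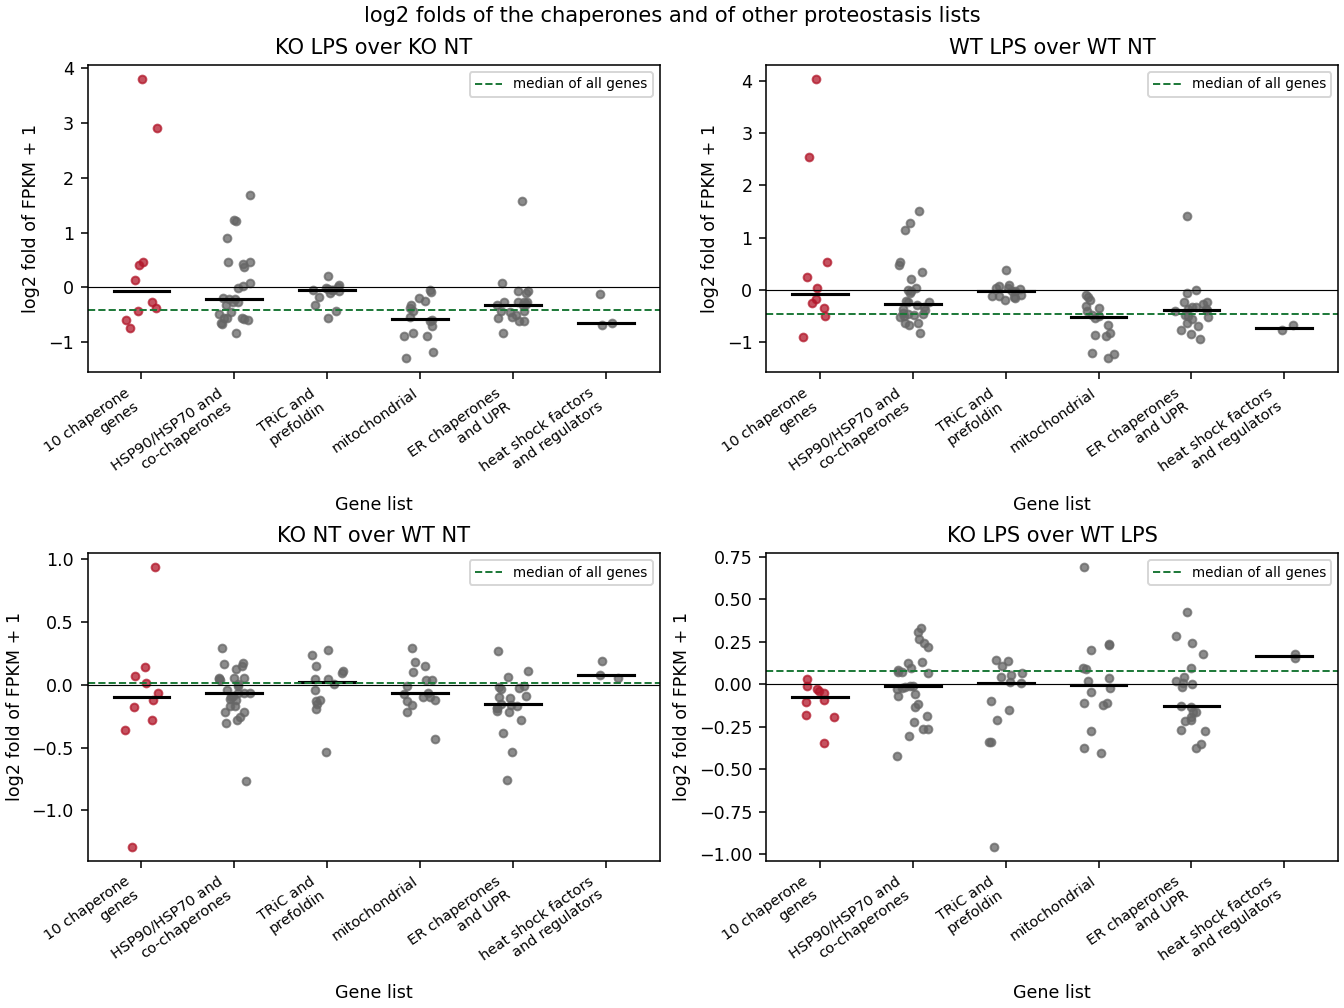
log2 folds of FPKM + 1 for the 10 chaperone genes (red) and 5 lists of related genes (grey), in the 4 comparisons; each point is a gene, black bars are list medians and the dashed line is the median of all genes. With LPS the Hspa1 pair stands above every other point in both genotypes, and the y axes of the lower panels, KO over WT, span a smaller range.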

How the data were processed

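The submitters' processing notes name Bowtie, RSEM and mm10. Their versions, the annotation and the strand setting were not given in the sources used here. The deposited expected counts are the authors' RSEM estimates of reads per gene, in which reads that fit several genes are divided among them. The deposited FPKM values are the authors' estimates scaled to gene length and library size. Genes missing from a table were set to 0.

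Symbols came from RefSeq for GRCm38.p6, matching 15897 of 15935 identifiers. Log2 folds were taken after adding 1 to each FPKM. Genes reaching 1 FPKM in a library of the comparison were measured, and a gene was counted as apart at 2-fold. Ratios of FPKM have exact 95% intervals from counts rounded to whole numbers (Python 3.11.15, scipy 1.17.1). With 1 library per group no test was run. Alternatives were pseudocounts of 0.1 and 5 FPKM, median-ratio scaling, CPM from the expected counts, folds of 1.5 and 3, no filter or 5 FPKM, and summing Hspa1a and Hspa1b.

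The members and lists were chosen with earlier results of these data known. From each list the text names genes among the 2 highest and 2 lowest log2 folds of a comparison, of at least 50 counts, and says where a gene was named otherwise.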

Additional observations from a re-analysis of the deposited data

Results flagged for a closer look

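For 4 members the LPS over NT ratio of KO and that of WT were apart beyond the exact interval of their quotient. Each genotype has 1 library per state, so the difference was not tested over replicates. For Hspa1a the KO ratio was 61.8 and the WT ratio 8.11, a quotient of 7.62. For Hspa1b the KO ratio was 12.4 and the WT ratio 83.0, a quotient of 0.149. The libraries without LPS behind these rest on 4.37 and 33.5 counts of Hspa1a in KO and WT, and on 21.5 and 3.68 of Hspa1b, and the quotient of the sum was 1.33 with an interval that included 1. For Hspa8 the quotient was 1.07 and for Hsp90aa1 1.12, and both intervals included 1 after median scaling.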

How the results depend on the processing

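The summed pair kept its direction in all 5 comparisons under median-ratio scaling and CPM. Median scaling turned the LPS ratio of Dnajb1 in KO to 1.02 and of Hspd1 to 1.12 in KO and 1.10 in WT, and the members' median log2 fold to 0.37 in KO and 0.41 in WT, by the construction of that scaling. With the pair as 1 member the KO median was -0.26. With LPS, 2 members were past 2-fold in each genotype: in KO the count was 4 at 1.5-fold, and in WT it was 3 at 1.5-fold, 3 with a pseudocount of 0.1 and 3 with median scaling. Between KO NT and WT NT, 1 member was past 2-fold: the count was 2 with a pseudocount of 0.1, 2 with CPM, 2 at 1.5-fold, 0 with a pseudocount of 5 and 0 at 3-fold. Of the responses, 2 members were apart, and 0 with a pseudocount of 5 or at 3-fold. With a filter of 5 FPKM, the genes 2-fold apart numbered 83 in place of 199 without LPS, 127 in place of 266 with LPS and 170 in place of 376 for the responses. No paired analysis was possible because each group has 1 library. Depth limits the pair without LPS and Hspa1l, and 3 counts of a library correspond to 0.528 to 0.573 CPM.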

Other observations

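Dnajb2, a J-domain co-chaperone, was lower in KO without LPS, at 3.37 FPKM in KO NT and 6.43 in WT NT (ratio 0.524, interval 0.364 to 0.746). With LPS it was at 9.27 FPKM in KO and 8.43 in WT, with an interval that included 1. Grpel2, a nucleotide exchange factor of the mitochondrial HSP70, was at 3.40 FPKM in KO LPS and 1.73 in WT LPS (ratio 1.97, 1.32 to 2.97). Pfdn4, a prefoldin subunit, was at 6.18 FPKM in KO LPS and 12.9 in WT LPS (ratio 0.478, 0.294 to 0.759), on 28 and 61 counts. These values have no replicate check.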
